A study of Mus musculus with 12 samples.

Results

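Mouse tumours taken at day 6 were compared between lines labelled as knockouts (KO) of Mif and their control lines. The cells were those of the libraries that hold a single line, kept with at least 300 detected genes, at most 15% mitochondrial counts, and a leading hashtag with at least 20 counts and at least 3 times the second. These rules gave 15791 cells of the 116375 in the series that met them, in 7 of the 8 day 6 hashtags of these libraries. The eighth hashtag, letter B of KO line 24, carried 7281 hashtag counts but led in 0 cells and was skipped. Cells with at least 2 UMIs (unique molecular identifiers, counted as molecules) over Ptprc and Tyrobp together were called immune-gated, which gave 4988 cells, and the other 10803 were treated as a separate compartment.

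The series follows melanoma rejection in mice, and its cells came from lines that the labels call SCC35. The control group held tumours 15A, 15B, 18A and 18B, from control lines 15 and 18 (n = 4), with 1733, 1646, 1594 and 2920 cells. The KO group held tumours 19A, 19B and 24A, from Mif KO lines 19 and 24 (n = 3), with 2935, 4310 and 653 cells. All were at day 6. The labels give neither the edit made in Mif nor the strain, age or genotype of the hosts, and a tumour's letter comes from its hashtag. Each group holds only 2 lines, each line has its own library, and line 24 gave 1 tumour, so that KO, line and library cannot be told apart in these 7 tumours. A further 4 day 6 tumours of the same lines sat in libraries that mix lines. The first of these held 15C and 19C and the second 18C and 24C, with 9910 cells in all. They were left out of the fits of the 7 tumours, and counts and values that use them are named as such, since each of these libraries holds a control and a KO tumour.

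Hashtags are antibodies that carry a short DNA barcode, so that pooled tumours can be told apart after sequencing. The barcodes that marked the 7 tumours are shown because every assignment to a tumour rests on them; HASH_M3 stands for letter A and HASH_M4 for letter B in each library, and capitals mark the whole barcode.
HASH_M3: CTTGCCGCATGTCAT
HASH_M4: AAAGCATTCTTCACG

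The product of Mif, macrophage migration inhibitory factor, is a cytokine that most cells make and store ready for release. It signals through the receptor Cd74, with Cd44 as a partner, and also binds chemokine receptors. Interferon gamma from natural killer (NK) and T cells acts on neighbouring cells. It raises guanylate-binding proteins, immunity-related GTPases and the machinery that cuts peptides, carries them into the endoplasmic reticulum and loads them on MHC class I for display to cytotoxic T cells.

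The 7 tumours held 132164241 UMIs, from 2881771 in tumour 24A to 41906675 in 19B, and the median per cell ranged from 3398.5 in 15B to 9655 in 15A. Of 15653 distinct barcodes, 138 occurred in more than 1 single-line library. Several melanocytic markers were nearly absent outside the immune gate: Tyr, Tyrp1 and Dct were at 0 in all 7 tumours and Mlana in 6, and the whole list summed to 10.7 to 15.8 CPM (counts scaled to a common library total). The list also holds Mitf, which was measured there. In the libraries that mix lines Mitf was 15.1 and 12.2 CPM in 15C and 18C and 11.8 and 10.7 CPM in 19C and 24C. The gate was imperfect in both directions. Of the immune-gated cells, 990 (19.8%) lay in 3 clusters without an immune class, meaning fewer than 3 immune markers or a fibroblast name. A further 104 (2.09%) lay in an unnamed cluster with T cell markers that stayed in the immune sums but in no class. Conversely, 2219 (20.5%) of the cells outside the gate lay in clusters named from host markers, among them 918 macrophage-like, 531 fibroblast-like and 519 T-like cells. For the cells outside the gate and the immune-gated cells, the fits were therefore also made without those clusters, a check added after the data were seen, and the calls it ended are given beside the genes.

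Mif itself was low in the KO tumours, most clearly outside the immune gate. Outside the gate the level was 2778, 2389, 2004 and 1819 CPM in 15A, 15B, 18A and 18B, against 103, 97.8 and 356 CPM in 19A, 19B and 24A. The groups did not overlap, and 24A was the highest of the KO tumours. On the log2 scale the KO difference was -3.63 (SE 0.49, edgeR adjusted p 0.0112, n = 3 against 4), and -4.13 without the host-like clusters. The difference missed the threshold without 19A, without 19B or without line 18. It also missed with 1 sum per line. After each cell was thinned to 1000 UMIs, at least 1 Mif UMI was found in 86.7%, 82.3%, 80.5% and 76.4% of cells outside the gate in the controls, and in 10.2%, 9.11% and 29.0% in 19A, 19B and 24A.

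Among immune-gated cells Mif was 1861, 1829, 1788 and 1794 CPM in the controls and 447, 461 and 726 CPM in the KO tumours, a log2 change of -1.75 (SE 0.18, edgeR adjusted p 0.0131). Without the clusters that carry no immune class the log2 change was -1.03 and missed the threshold (adjusted p 0.0626). In macrophage/monocyte-like cells Mif was 1426, 1058, 1246 and 1099.7 CPM against 778, 733 and 798 CPM, without overlap, and the test was not passed (log2 change -0.65, edgeR adjusted p 0.101). In the mixed libraries Mif outside the gate was 1957 in 15C against 423 CPM in 19C, and 1866 in 18C against 1104 CPM in 24C. There the macrophage-like log2 difference was 0.06. Mif RNA shared between cells of a library was not tested as a part of these values.

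**Figure D1:**
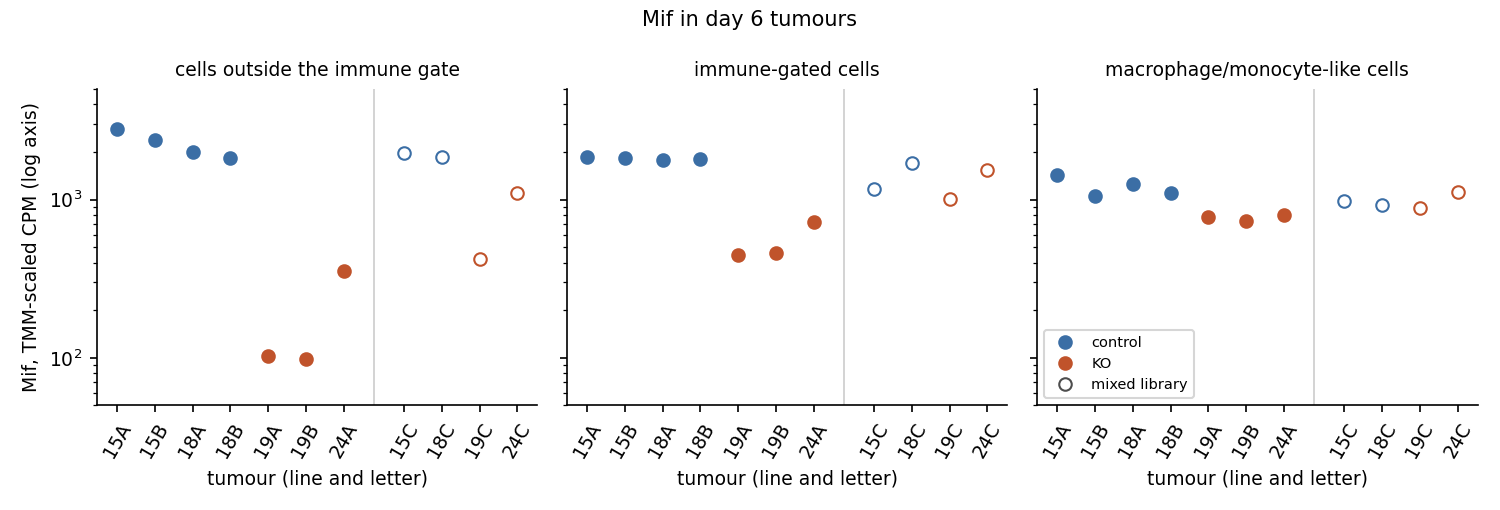
Mif in the day 6 tumours, in CPM after TMM scaling on a log axis, for cells outside the immune gate, immune-gated cells and macrophage/monocyte-like cells. Filled points are the 7 tumours of the single-line libraries and open points the 4 of the mixed libraries; the gap between control and KO is widest outside the gate, where controls reach 1819 CPM or more and single-line KO tumours 356 CPM or less.

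Outside the immune gate, KO tumours showed higher antigen presentation and interferon-induced genes, lower levels of 4 of 19 cell cycle genes, and a set of large single-gene differences. Of 12821 genes tested, 781 (6.09%) passed an adjusted p of 0.05 in edgeR, 396 (3.09%) higher and 385 (3%) lower in KO. KO tumours lay above every control in 1450 genes (11.3%) and below every control in 1702 (13.3%). Summing the tumours of each line left 1 gene past the threshold, Sprr1a, with 1432 genes at an unadjusted p under 0.05. The count was 21 without 19B, 39 without 19A, 150 without 15A, 227 without 18B, 424 without 18A and 1618 without 24A, the only tumour of its line. It was 417 without line 15 and 102 without line 18. Among the genes given below with their values, S100a16, Sprr1a, Akr1c18, Twist2, Tgfb3 and Dmp1 passed with any 1 tumour or line left out. The p-values measure the spread among these tumours, which the labels do not tie to separate animals, and the sums cannot tell fewer cells of a type from less RNA per cell.

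**Figure D2:**
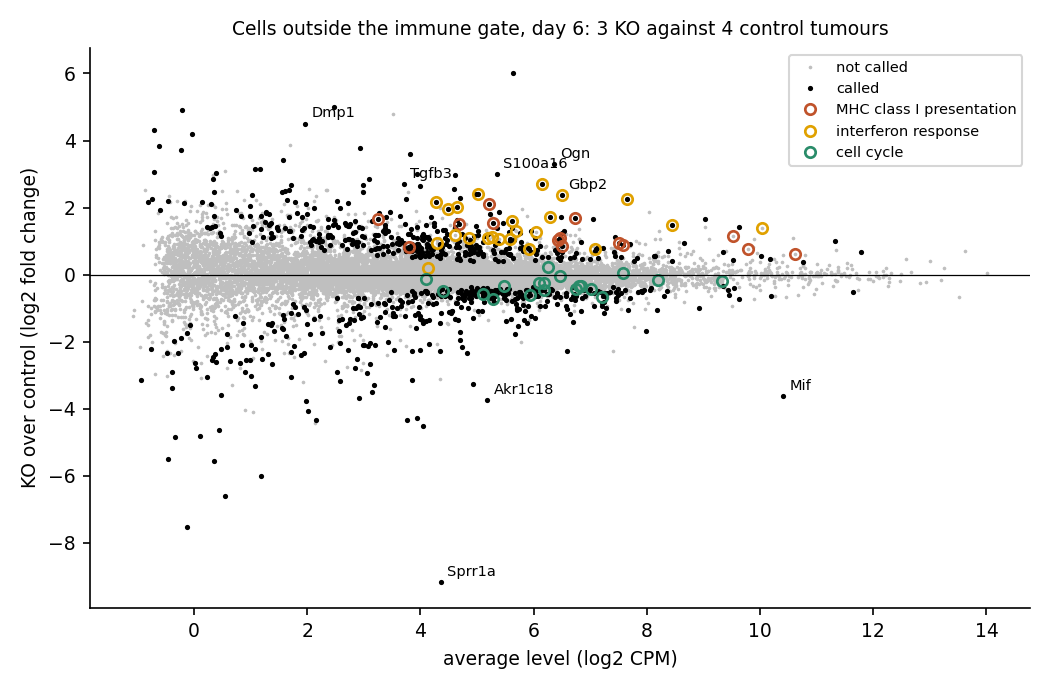
Log2 fold change (KO over control) against average log2 CPM for the 12821 genes tested outside the immune gate, with genes past an adjusted p of 0.05 in black. Members of the antigen presentation, interferon and cell cycle lists are ringed; the first pair of lists lies above 0 and most cell cycle genes lie a little below it.

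All 14 genes of the MHC class I presentation list were higher in every KO tumour than in every control, and 11 of them passed the test. Their median log2 change was 1.08, against -0.00665 over all genes tested. The immunoproteasome, which cuts peptides for MHC class I, rose through its catalytic subunits Psmb8, Psmb9 and Psmb10. Psmb8 was 56.8, 86.8, 40.7 and 35.2 CPM in the controls and 169, 176 and 185 CPM in the KO tumours (log2 change 1.69, SE 0.28, edgeR adjusted p 0.0159). Psmb9 was 15.6, 30.01, 8.34 and 7.98 CPM in the controls against 63.8, 70.8 and 65.9 CPM (log2 change 2.12, adjusted p 0.0247). For both, the highest control was 15B. Both missed the threshold without 15A, 19A, 19B, line 18 or line 19, and Psmb9 also without 18A or 18B.

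The proteasome activator subunits Psme1 and Psme2 rose as well. Psme1 was 138, 176, 135 and 114 CPM in the controls and 244, 249 and 292 CPM in the KO tumours (log2 change 0.89, SE 0.15, edgeR adjusted p 0.0175). The peptide transporter subunits Tap1 and Tap2, the loading factor Tapbp, the peptide-trimming enzyme Erap1, the class I transactivator Nlrc5 and the non-classical class I gene H2-T23 also rose. Tap2 was 13.7, 19.5, 15.8 and 9.52 CPM against 37.1, 34.0 and 55.2 CPM (log2 change 1.498, SE 0.25, edgeR adjusted p 0.0165). Psme1 and Tap2 missed the threshold without 15A, 19A, 19B or line 18, and Erap1 without 19A, 19B or any 1 of lines 15, 18 and 19. The display molecules themselves did not pass: the classical heavy chain H2-K1 had a log2 change of 1.17 (edgeR adjusted p 0.0539) and the light chain B2m 0.61 (adjusted p 0.0649), and H2-D1 also missed. Reads of H2-K1 and H2-D1, which are close in sequence, may be split between them by the authors' counting.

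The interferon response list moved in the same direction, with all 23 measured members higher in KO, 21 of them without overlap and 11 past the test. Its median log2 change was 1.29. Gbp2, a guanylate-binding protein, was 19.1, 53.4, 34.7 and 24.1 CPM against 149, 160 and 201 CPM (log2 change 2.38, SE 0.32, edgeR adjusted p 0.0105). Each KO tumour was well above 15B, the highest control, although the call was lost without 19B or without line 18.

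The immunity-related GTPases Igtp, Iigp1 and Irgm1, which act on the vacuoles of intracellular microbes, were among the largest rises. Igtp was 9.74, 20.7, 10.4 and 5.598 CPM in the controls and 58.6, 67.1 and 55.2 CPM in the KO tumours (log2 change 2.41, SE 0.35, edgeR adjusted p 0.0126). Iigp1 was 13.8, 44.0, 17.8 and 9.91 CPM against 123, 132 and 163 CPM (log2 change 2.71, adjusted p 0.0159). Irgm1, which is outside the list, rose by a log2 change of 2.30 (edgeR adjusted p 0.0119). Of the remaining members, Ifi27l2a, a small interferon-induced protein, rose by a log2 change of 2.27 (edgeR adjusted p 0.0242) and Isg15, a ubiquitin-like modifier, by 1.47 (adjusted p 0.0477), while Ifit1, Ifit2, Ifit3, Rsad2, Usp18 and Irf7 did not pass. All 5 of these calls were lost without 19A, 19B or line 18. Those of Igtp, Iigp1, Ifi27l2a and Isg15 were also lost without 15A, those of Ifi27l2a and Isg15 without 18B, and that of Isg15 without 18A or 24A.

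**Figure D3:**
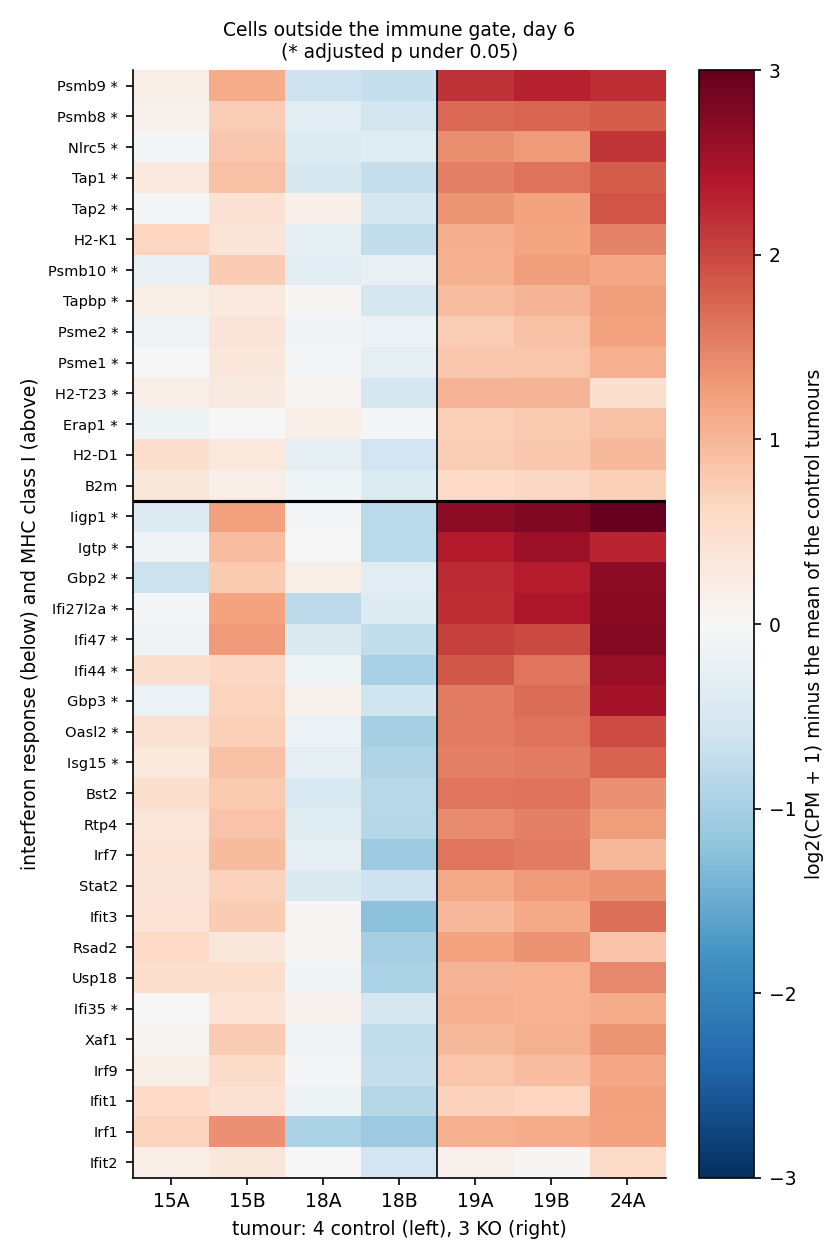
Heat map of the 14 MHC class I presentation genes (above) and 22 of the 23 measured interferon response genes (below) in the 7 tumours, cells outside the immune gate. Colour is log2(CPM + 1) minus the mean of the control tumours, and an asterisk marks an adjusted p under 0.05; the 3 KO columns are above the control mean throughout, and 15B is the control nearest to them.

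The stretches before the starts of Gbp2, Igtp and the gene pair Psmb9 and Tap1 are shown because these genes carry the rise. They come from RefSeq promoters on build GRCm38.p6, read 5′ to 3′ on the plus strand, at chr3:142620413-142620662 for Gbp2, chr11:58199306-58199555 for Igtp, and chr17:34187331-34187555 for the interval between Psmb9 and Tap1, which start in opposite directions. Capitals mark matches, on either strand, to the interferon-stimulated response element (ISRE, searched as GAAA, any 2 bases, then GAAA) or the gamma-activated site (GAS, searched as TTCNNNGAA).
Gbp2: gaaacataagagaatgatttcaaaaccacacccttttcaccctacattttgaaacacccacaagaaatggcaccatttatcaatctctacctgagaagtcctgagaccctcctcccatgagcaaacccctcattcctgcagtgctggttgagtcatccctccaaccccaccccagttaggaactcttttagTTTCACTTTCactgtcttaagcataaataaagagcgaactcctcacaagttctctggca
Igtp: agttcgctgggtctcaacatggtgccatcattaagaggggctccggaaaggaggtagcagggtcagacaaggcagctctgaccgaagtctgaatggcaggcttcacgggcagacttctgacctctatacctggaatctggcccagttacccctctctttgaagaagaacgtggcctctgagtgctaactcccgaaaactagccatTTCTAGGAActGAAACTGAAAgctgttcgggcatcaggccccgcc
Psmb9-Tap1: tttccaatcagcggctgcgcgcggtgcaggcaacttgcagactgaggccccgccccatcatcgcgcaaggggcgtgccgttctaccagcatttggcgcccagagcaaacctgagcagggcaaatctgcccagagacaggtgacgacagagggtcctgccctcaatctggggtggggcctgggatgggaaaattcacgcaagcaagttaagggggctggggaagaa

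Gbp2 held 1 ISRE match and Igtp 1 of each motif, side by side near its start, and the Psmb9-Tap1 interval held neither. Over the 250 bases before the start, the ISRE letters occurred in 936 of 27025 genes with a window (3.46%), and in 4 of the 8 risen interferon genes that had one (Isg15, Gbp2, Gbp3 and Igtp). Among the 9 risen MHC class I genes with a window, 1 held them (H2-T23). The GAS letters occurred in 2197 windows (8.13%), among them those of Igtp and Psmb8. A match is a description of the letters and not a sign of binding.

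MHC class II, which displays peptides to CD4 T cells, was higher in all 7 of its measured genes, with a median log2 change of 0.93, and 2 of the 7 passed the test. These were the peptide-exchange subunits H2-DMa (log2 change 1.27, edgeR adjusted p 0.0348) and H2-DMb1 (0.73, adjusted p 0.0287). Both calls were lost without 15A, 18B, 19A or 19B, and that of H2-DMa also without 18A. Without the host-like clusters H2-DMb1 missed the threshold as well, at a log2 change of 0.68 (edgeR adjusted p 0.0626). Cd74, at once the class II invariant chain and the Mif receptor, was 38.3, 112, 37.6 and 80.8 CPM in the controls and 150, 158 and 209 CPM in the KO tumours, and did not pass (log2 change 1.35, edgeR adjusted p 0.0672). Without the host-like clusters the control levels of Cd74 dropped, to 3.85, 7.82, 9.95 and 7.34 CPM, against 77.5, 97.2 and 96.2 CPM, a log2 change of 3.67 (edgeR adjusted p 0.00037). In that fit 899 of 11980 genes passed (7.5%), including 4 of 6 class II, 11 of 14 class I and 16 of 23 interferon genes. Cd74 and H2-Ab1, which are among the class II genes that passed there, are on the dendritic cell marker list that named some of the removed clusters. Their values in that fit are thus not independent of the removal.

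Of the other Mif partners, the atypical receptor Ackr3 was lower. Ackr3 was 27.1, 24.3, 27.2 and 26.5 CPM in the controls and 10.7, 10.4 and 16.7 CPM in the KO tumours (log2 change -1.16, SE 0.16, edgeR adjusted p 0.0119). It missed the threshold without 19A, 19B or line 18. The mixed-library log2 difference of Ackr3 was -0.48. Its level there was 25.3 CPM in 15C against 12.3 CPM in 19C, and 17.5 CPM in 18C against 18.6 CPM in 24C. Cd44 had a log2 change of -0.43 (adjusted p 0.132) and Ddt, the paralog of Mif, -0.16 (edgeR adjusted p 0.607). Neither passed the test.

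Many of the large differences outside the immune gate were in genes with no place in these lists. Sprr1a, a cornified envelope precursor also induced by injury, was 49.3, 18.1, 35.1 and 36.2 CPM in the controls and 0.0483, 0.0583 and 0 CPM in the KO tumours (edgeR adjusted p 0.000936). That is 1817 UMIs against 3, a ratio of 726 per UMI sequenced with an exact 95% counting interval of 248 to 3525. In the mixed libraries Sprr1a was 92.7 and 49.6 CPM in 15C and 18C against 14.1 and 11.4 CPM in 19C and 24C, so its near absence was seen only in the single-line libraries.

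Akr1c18, a hydroxysteroid dehydrogenase, was 66.7, 63.6, 51.3 and 56.2 CPM in the controls and 5.31, 4.69 and 0.794 CPM in the KO tumours (log2 change -3.74, SE 0.29, edgeR adjusted p 0.000936). Twist2, a transcription factor of mesenchymal cells, was 50.8, 42.6, 32.5 and 44.4 CPM against 9.37, 8.53 and 6.35 CPM (log2 change -2.33, adjusted p 0.00113). The gut and brain peptide Cck fell by 3.26 (edgeR adjusted p 0.0216), and it was not tested once the host-like clusters were removed. Its call was also lost without 19A or 19B. Fibroblast-like cells made up 7.67%, 9.23%, 3.36% and 6.37% of cells outside the gate in the controls and 3.44%, 3.28% and 4.27% in the KO tumours. The log2 change of Twist2 was -1.57 without all the host-like clusters, and the part of the fibroblast-like cells alone was not tested.

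The signalling regulator Rgs16 fell by 2.28 on the log2 scale, the pyrimidine-degrading enzyme Dpys by 2.27, the matrix glycoprotein Tnn by 2.17, the Wnt pathway modulator Dkk2 by 2.07 and the calcium pump Atp2a3 by 1.95. The calls of Tnn, Dkk2, Atp2a3 and Rgs16 were lost without 19A or 19B and that of Dpys without 19B, and for Rgs16 also without 15A or 18B and for Dkk2 without 18B. In the mixed libraries the difference in Dkk2 was -0.06, with 25.6 and 20.3 CPM in the controls against 20.9 and 22.7 CPM in KO.

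Among the rises, S100a16, a calcium-binding protein, was far apart between the groups. S100a16 was 8.45, 13.8, 10.9 and 8.62 CPM in the controls and 73.4, 69.8 and 109 CPM in the KO tumours (log2 change 3.003, SE 0.22, edgeR adjusted p 0.000936). It was also higher in both mixed libraries, at 18.5 and 9.94 CPM against 67.4 and 82.9 CPM. Ogn, a small leucine-rich proteoglycan, was 12.0, 5.98, 43.8 and 9.39 CPM against 91.9, 102 and 332 CPM (log2 change 3.2996, SE 0.72, edgeR adjusted p 0.0356), with 18A the highest control and 24A the highest KO. Ogn missed the threshold without 15A, 15B, 18B, 19A or 19B. The secreted peptide precursor Ecrg4 rose by a log2 change of 2.98, the oxygen-sensing prolyl hydroxylase Egln3 by 2.54 and the carbonyl reductase Cbr2 by 2.39. These 3 calls were lost without 19A or 19B, and that of Egln3 also without 15B, 18A or 18B. All 10 of the named rises were higher, and all 10 of the named falls lower, in KO in the mixed libraries as well, where the median log2 change was 2.46 for the rises and -1.40 for the falls.

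Of 11 measured TGF-beta genes, Tgfb3 rose and Inhba fell, with a list median log2 change of 0.03. Tgfb3, a TGF-beta ligand, was 3.46, 3.45, 5.37 and 3.54 CPM in the controls and 29.4, 25.7 and 19.1 CPM in the KO tumours (log2 change 2.69, SE 0.21, edgeR adjusted p 0.000936). Inhba, the activin A subunit, was lower, at 33.3, 40.0, 21.9 and 35.2 CPM against 14.7, 14.0 and 7.54 CPM (log2 change -1.33, adjusted p 0.0223). That of Inhba was -0.39 (adjusted p 0.43) without the host-like clusters. It also missed without 15A, 18B, 19A or 19B. The induced matrix protein Tgfbi had a log2 change of -2.28 and did not pass (edgeR adjusted p 0.0563).

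Of 19 collagen and matrix genes, Ogn and Dmp1 rose and Col12a1 fell, with a list median of 0.31. Dmp1, a mineralised-tissue matrix protein, was 0.192, 0, 0.686 and 0.579 CPM in the controls and 10.1, 7.05 and 7.94 CPM in the KO tumours (log2 change 4.51, edgeR adjusted p 0.00638). Without the host-like clusters 6 of the 19 rose, adding the fibrillar collagen chains Col1a1 and Col1a2 and the collagen-binding proteins Sparc and Bgn, and Col12a1, whose call was also lost without 15A, 18B, 19A or 19B, no longer passed. Col1a1 and Col1a2 are on the fibroblast marker list that named some of the removed clusters, so their calls in that fit are not independent of the removal.

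Of 19 cell cycle genes, 17 were lower in KO and 4 passed the test, with a median log2 change of -0.32. Aurkb, a kinase of chromosome segregation, was 40.5, 36.8, 38.7 and 43.6 CPM in the controls and 26.7, 29.0 and 24.2 CPM in the KO tumours (log2 change -0.57, SE 0.11, edgeR adjusted p 0.0234). The mitotic kinase Plk1 was 49.0, 48.5, 40.6 and 49.1 CPM against 30.6, 31.8 and 19.8 CPM (log2 change -0.73, adjusted p 0.0357). The cyclins Ccnb1 and Ccnb2 fell by 0.60 and 0.47 on the log2 scale. All 4 calls were lost without 15A, 18B, 19A or 19B, and those of Plk1, Ccnb1 and Ccnb2 also without 18A and that of Plk1 without 15B. The groups did not overlap for any of the 4, while Mki67, Top2a, the replication genes and the other mitotic members Ccna2, Cdk1, Aurka and Bub1 did not pass. Bub1, a spindle checkpoint kinase, had a log2 change of -0.13 (edgeR adjusted p 0.595) and overlapping groups. Without the host-like clusters 5 of the 19 passed, the same 4 and Ccna2. Aurkb was 20.9 CPM in 15C and 28.2 CPM in 19C of the mixed libraries, and Plk1 33.6 and 30.5 CPM. Ccnb1 was 44.9 and 45.2 CPM there, and Ccnb2 66.7 and 65.6 CPM. All 4 were lower in 24C than in 18C. Aurkb was 46.7 CPM in 18C and 26.6 CPM in 24C, Plk1 56.8 and 27.3, Ccnb1 98.0 and 46.2, and Ccnb2 86.0 and 58.5.

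Ptgs2, the inducible prostaglandin synthase, was the only one of 12 inflammatory genes past the test. It was 89.2, 100, 80.3 and 74.9 CPM in the controls and 29.9, 31.4 and 47.6 CPM in the KO tumours (log2 change -1.29, edgeR adjusted p 0.0119), a call lost without 19A, 19B or line 18. Among 15 chemokines 0 passed, although the interferon-induced Cxcl10 was 148, 258, 54.5 and 37.1 CPM against 279, 307 and 783 CPM, without overlap (log2 change 1.87, edgeR adjusted p 0.122). The neutrophil-attracting factors (5 measured), checkpoint ligands (6), glycolysis and hypoxia genes (14), metalloproteinases (10), p53 targets (11), alternative activation genes (4), cytotoxicity genes (5) and melanocyte lineage genes (5) had 0 past the test. Without the host-like clusters the metalloproteinase Mmp14 rose by a log2 change of 0.42 (edgeR adjusted p 0.0486) and the checkpoint ligand Pdcd1lg2, at 1.74 CPM or less in every tumour, fell by 2.24 (adjusted p 0.0342). The checkpoint ligand Cd274 had a log2 change of 1.005 (edgeR adjusted p 0.111) and Mitf, the melanocyte transcription factor, -0.40 (adjusted p 0.0975).

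The mixed libraries, with fewer tumours, gave the same direction for the antigen presentation and interferon lists when fitted together, but not for every gene in each library. Outside the gate 14 of 14 MHC class I, 23 of 23 interferon and 7 of 7 MHC class II genes were higher in KO, with median log2 changes of 0.84 and 1.66 for the first and second list, where 49.1% of all genes were higher. With 4 tumours and library as a term, 0 of 12836 genes (0%) passed in edgeR, and 317 had an unadjusted p under 0.05. The tumour 24C, with Gbp2 at 355 CPM, stood above 19C, at 98.0 CPM, and both stood above 15C and 18C, at 28.9 and 16.7 CPM. All genes of these lists were higher in 24C than in 18C, but 15C and 19C were split. Of MHC class I, H2-K1, H2-D1, B2m, Tapbp, H2-T23, Psme1, Nlrc5 and Erap1 were lower in 19C and the rest higher. Of MHC class II, only H2-DMa and H2-DMb1 were higher in 19C. Of the interferon genes, Irf1, Irf7 and Ifit2 were lower there and the rest higher. H2-D1 was 1035.2 CPM in 15C and 724.88 CPM in 19C, and Cd74 166.31 and 107.68 CPM.

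The share of immune-gated cells did not separate the groups. It was 31.6%, 46.1%, 19.8% and 30.1% in the controls and 36.6%, 28.6% and 28.3% in the KO tumours, with means of 31.9% ± 10.8 (SD, n = 4) and 31.2% ± 4.68 (SD, n = 3). The exact two-sided permutation p was 0.857, and the smallest that 4 against 3 tumours allow is 0.0571. Within the immune-gated cells, NK-like and T-like clusters had a larger share in every KO tumour than in every control.

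NK-like cells were 1.65%, 4.62%, 0% and 0.683% of immune-gated cells in the controls and 8.57%, 8.04% and 21.6% in the KO tumours (1.74% ± 2.04 against 12.7% ± 7.69, exact permutation p 0.0571, 0.257 adjusted over 9 classes). The count of 0 in 18A allows a share of up to 0.952%. T-like cells were 1.83%, 3.69%, 0.952% and 1.37% against 6.34%, 8.20% and 9.73% (1.96% ± 1.21 against 8.09% ± 1.70, with the same exact p values). Both shares kept the groups apart, and the p is the smallest this design can give. The unnamed cluster with T cell markers, led by Gzmc, Gzmb, Prf1 and Ifng, is in neither class. It held 0.548%, 1.45%, 0.635% and 0.797% of immune-gated cells in the controls and 3.63%, 3.08% and 2.16% in the KO tumours, again without overlap. Its cells held at the median 5.47 times the median UMI count of their library's immune-gated cells, against 0.95 times in the T-like and NK-like clusters, and doublets of lymphocytes with other cells were not tested as a part of it. The NK-like clusters were named from a list of 11 NK markers, so the summed level of that list is no separate measure of them. In immune-gated cells this sum was 188, 487, 18.3 and 57.7 CPM in the controls and 804, 724 and 1722 CPM in the KO tumours, with 6 of the markers at 0 in 18A.

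With the 4 mixed-library tumours added (5 KO against 6 control), the NK-like share was 10.1% ± 6.56 against 1.87% ± 1.59, an exact permutation p of 0.00433, 0.0292 after adjustment over the classes. That test shuffled tumours freely and took no account of line or of shared library. The tumours come from 2 lines per group, so the p does not measure spread between lines. In those libraries the NK-like share was 2.15% and 2.13% in 15C and 18C and 6.12% and 5.95% in 19C and 24C. The T-like share was 2.27% and 5.05% in 15C and 18C and 3.56% and 9.41% in 19C and 24C, so that 18C lay above 19C. T-like clusters lay on both sides of the gate, and as a share of all cells T-like cells were 4.18% in 15C against 3.28% in 19C, the opposite direction, and 1.95% in 18C against 11.7% in 24C. In the 7 single-line tumours they were 1.57% to 4.07% of all cells in the controls and 5.86% to 11.5% in KO. NK-like cells of the mixed libraries were 1.21% and 0.422% of all cells in 15C and 18C against 1.34% and 2.07% in 19C and 24C. Among the single-line controls 15A, 15B, 18A and 18B they were 0.519%, 2.13%, 0% and 0.205% of all cells. The single-line KO tumours 19A, 19B and 24A held 3.13%, 2.30% and 6.13%. On this measure 15B thus lay above 19C and 24C.

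Macrophage/monocyte-like cells were the largest named immune class in every tumour except 18A. They were 64.7%, 62.8%, 30.2% and 33.7% in the controls and 49.5%, 48.0% and 39.5% in the KO tumours (exact permutation p 0.857). Their lower share in line 18 went with an osteoclast-like class, named from its markers, that made up 37.5% and 22.4% of immune-gated cells in 18A and 18B and 0.541% or less in the other 5 tumours. Tumour 18C of the mixed library also held 18.1% of these cells, and 15C 3.46%. Neutrophil-like cells were 3.66%, 4.22%, 2.22% and 1.48% against 1.68%, 1.62% and 0%, and migratory dendritic-like cells 2.56%, 1.06%, 0.635% and 0.797% against 3.64%, 4.63% and 1.62%. Neither class passed an exact test in the 7 tumours (p 0.171 and 0.114).

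**Figure D4:**
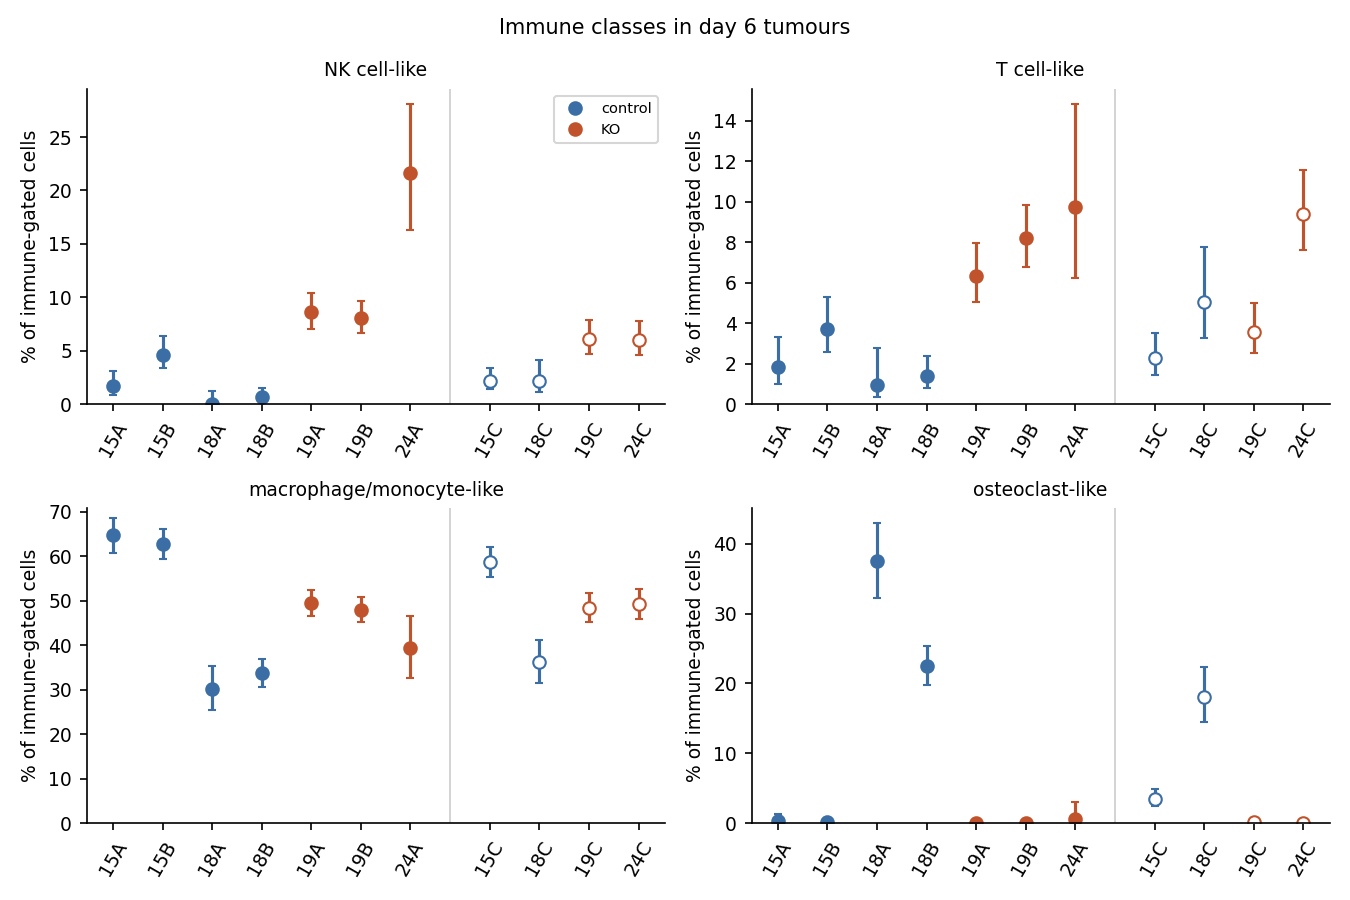
Shares of immune-gated cells, in percent, for NK-like, T-like, macrophage/monocyte-like and osteoclast-like cells in each day 6 tumour, with Wilson 95% intervals that cover counting error only. Filled points are single-line libraries and open points mixed libraries; the KO tumours lie above the controls for NK-like cells, and the osteoclast-like class is large only in the tumours of line 18.

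In the summed immune-gated cells 100 of 10854 genes passed (0.921%), 60 higher (0.553%) and 40 lower (0.369%) in KO. KO tumours lay above every control in 872 genes (8.03%) and below in 949 (8.74%). Without the clusters that carry no immune class, 5 of 9308 genes passed (0.0537%), 4 of them among the 100. The 5 were Gata3, Sod3, Prss23, Serpinf1 and Ly6c1, all higher in KO. With all clusters, Prss23 and Serpinf1 stood in the immune-gated KO sums at 76.6% and 54.4% of their level outside the gate. The mixed-library differences of Sod3, Prss23 and Serpinf1 were 0.48, 0.25 and 0.54. In the fit of all immune-gated cells, leaving out a control tumour gave 33 (15A), 275 (15B), 43 (18A) or 24 genes (18B). Leaving out a KO tumour gave 0 (19A or 19B, with 1091 and 1066 genes at an unadjusted p under 0.05 in edgeR) or 227 genes (24A). Leaving out a line gave 1367 (line 15), 176 (line 18) or 2 genes (line 19). Without line 19 the KO group is 24A alone, here and in the other fits of day 6, and the controls supply the spread, on the assumption that 24A varies as they do. Several of the largest changes were those of the cells outside the gate. The calcium-binding S100a16 (log2 change 3.11) in KO, and Akr1c18 (-3.25) and the matrix glycoprotein Tnn (-2.53) in controls, stood in the immune-gated sums at 56.9%, 66.1% and 98.1% of their level outside the gate, respectively. In the mixed libraries the immune-gated difference of S100a16 was 0.45, and those of Akr1c18 and Tnn turned, to 0.51 and 0.95. All 3 calls were lost without 19A, 19B or line 19, those of Akr1c18 and Tnn without the clusters that carry no immune class (where S100a16 was not tested), and that of Tnn without 15A or 18B. The part of gate-negative cells or of shared RNA in these calls was not tested.

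Of genes known from immune cells, the chemokine Ccl22, which draws Ccr4-bearing T cells, was higher in KO. Ccl22 was 10.3, 11.5, 1.34 and 7.79 CPM in the controls and 43.9, 47.8 and 22.99 CPM in the KO tumours (log2 change 2.32, SE 0.37, edgeR adjusted p 0.0312). Migratory dendritic-like cells, whose share is given above, were also more frequent in the KO means, and their part in this difference was not tested. The cytokine-signalling inhibitor Socs2 rose by a log2 change of 1.57 (edgeR adjusted p 0.0223) and the lymphocyte transcription factor Ikzf2 by 1.88 (adjusted p 0.0396). The interferon-induced GTPase Iigp1, at 15.8, 30.1, 21.5 and 16.4 CPM against 67.6, 57.9 and 65.1 CPM, was the only interferon gene of 23 past the test (log2 change 1.60, edgeR adjusted p 0.0223). The calls of Ccl22, Socs2, Ikzf2 and Iigp1 were lost without 19A or 19B and without 18B, those of Ccl22, Ikzf2 and Iigp1 also without 15A, and those of Socs2, Ikzf2 and Iigp1 without 18A. All 4 were also lost without the clusters that carry no immune class, where the log2 changes were 2.19, 1.61, 2.09 and 1.56 in that order (edgeR adjusted p 0.145, 0.119, 0.0793 and 0.119). Of 14 MHC class I genes 14 were higher and 0 passed, with a median log2 change of 0.66 against -0.0138 over all genes.

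The complement C5a receptor C5ar1 was lower, at 129, 80.2, 90.5 and 58.2 CPM in the controls and 25.7, 30.3 and 30.7 CPM in the KO tumours (log2 change -1.64, SE 0.27, edgeR adjusted p 0.0323). The myeloid chemokine Ccl9 was 166, 140, 402 and 322 CPM against 56.5, 57.1 and 61.3 CPM (log2 change -2.15, adjusted p 0.0396), highest in the line 18 tumours that held the osteoclast-like cells. C5ar1 missed the threshold without 18A, 19A or 19B, and Ccl9 without any 1 tumour other than 15B. Both also missed it without the clusters that carry no immune class, at log2 changes of -1.87 and -2.27 (edgeR adjusted p 0.107 and 0.0626). The heat shock genes Hspa1a and Hspa1b, near-identical copies whose reads cannot be split with certainty, fell by 2.37 and 1.73 on the log2 scale. In the mixed libraries their differences were -0.10 and 0.11. Both calls were lost without 19A or 19B, and that of Hspa1a also without 15A or 18B. Without the clusters that carry no immune class both missed the threshold, at log2 changes of -2.53 and -2.17 (edgeR adjusted p 0.0564 and 0.0650). By contrast the differences in the mixed libraries were 2.94 for Ccl22, -1.16 for C5ar1 and 1.43 for Socs2. The mixed libraries alone, in a fit with 1 residual degree of freedom, gave 113 of 10953 genes past the test (1.03%), 7 of them among the 100.

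Granule genes of killer lymphocytes were higher in the KO tumours without passing the test, and their levels moved with the NK-like and T-like shares, whose part was not tested. Nkg7, Gzma and Prf1 are on the marker list that named the NK-like clusters, so for them a tie to the NK-like share is partly built in. Nkg7, a granule membrane protein, was 32.4, 97.8, 1.34 and 13.0 CPM in the controls and 212, 177 and 458 CPM in the KO tumours (log2 change 2.88, edgeR adjusted p 0.142). The granzyme Gzmb was 22.1, 145, 0.671 and 21.3 CPM against 222, 198 and 487 CPM (log2 change 2.59, adjusted p 0.216). Of 8 measured cytotoxicity genes 7 were higher and 0 passed, with a median of 1.77. Tumour 18A, with a count of 0 NK-like cells, had the lowest values.

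Macrophage/monocyte-like cells gave 46 of 6985 genes past the test (0.659%), 21 higher (0.301%) and 25 lower (0.358%) in KO, from 354, 476, 95 and 296 such cells in the controls and 531, 591 and 73 in the KO tumours. KO tumours lay above every control in 316 genes (4.52%) and below in 446 (6.39%). The count was 8 without 15A, 203 without 15B, and 5 without 19A or without 19B. It was 383 without line 15, 119 without line 18 and 0 without line 19, where 433 genes had an unadjusted p under 0.05 in edgeR and the 73 cells of 24A were the whole KO group. Gbp2 was 243, 385, 139 and 172 CPM in the controls and 777, 745 and 468 CPM in the KO tumours (log2 change 1.47, SE 0.27, edgeR adjusted p 0.0173). Iigp1 rose too, by a log2 change of 1.40 (adjusted p 0.0173). Cxcl9, a chemokine that interferon gamma induces and that draws T cells, was 349, 448, 96.3 and 137 CPM against 929, 1059.9 and 614 CPM (log2 change 1.70, SE 0.35, edgeR adjusted p 0.0350), a call that DESeq2 did not make. All 3 calls were lost without 15A, 19A or 19B, and that of Cxcl9 also without 18A or 18B.

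These genes differed more in the mixed libraries, by a log2 difference of 3.0 for Gbp2 and 3.6 for Cxcl9, and the fit of those libraries called 415 of 6287 genes (6.6%), 31 of them among the 46. That fit has 1 residual degree of freedom, so its p-values say little about the spread between tumours. Outside the gate the same tumours gave 0 calls. All 7 MHC class II genes lay above every control in the KO macrophage-like sums of the single-line libraries, with a median log2 change of 0.71, against -0.0272 over all genes, and 0 passed. The mixed-library fit also had all 7 higher in KO, with a median of 0.50, and called 5. H2-Aa, a class II chain, was 1701, 1811, 1722.5 and 1383 CPM in the controls and 2376, 2558 and 3223 CPM in the KO tumours (edgeR adjusted p 0.0734). Ccl24, a chemokine for eosinophils, was 3.78, 16.9, 5.35 and 5.06 CPM against 104, 25.3 and 53.7 CPM (log2 change 2.80, edgeR adjusted p 0.0223). The vasoconstrictor Edn1 rose by a log2 change of 2.24. The calls of both were lost without 15A or 19A, that of Ccl24 also without 18A and that of Edn1 without 19B.

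Of 9 measured alternative activation genes Ccl24 rose and Stab1 fell, with a list median of -0.94. The scavenger receptor Stab1 was 112, 67.6, 144 and 111 CPM in the controls and 18.8, 26.3 and 38.4 CPM in the KO tumours (log2 change -2.09, SE 0.30, edgeR adjusted p 0.00471). Its mixed-library difference was -0.95, and the fall was seen in only 1 of these libraries. Stab1 was 47.6 CPM in 15C against 50.03 CPM in 19C, and 167 CPM in 18C against 41.3 CPM in 24C. Ifitm1, an interferon-induced membrane protein, was lower rather than higher, at 414, 220, 337 and 402 CPM against 68.7, 65.7 and 15.3 CPM (log2 change -2.50, SE 0.30, edgeR adjusted p 0.0015), and had a difference of -2.58 in the mixed libraries. The mucin-like Pdpn fell by 2.85 and the cholesterol exporter Abca1 by 1.998 on the log2 scale, and by 2.14 and 1.62 in the mixed libraries. The calls of Stab1, Pdpn and Abca1 were lost without 19A or 19B and those of Pdpn and Abca1 also without 15A, while Ifitm1 was lost only without line 19. The mannose receptor Mrc1 (log2 change -1.17) and the folate receptor Folr2 (-1.56) did not pass (edgeR adjusted p 0.0827 for each). In the mixed libraries Mrc1 was 243 CPM in 15C against 252 CPM in 19C, and 295 CPM in 18C against 94.7 CPM in 24C. Folr2 was 60.5 CPM in 15C against 70.04 CPM in 19C, and 46.6 CPM in 18C against 22.4 CPM in 24C. Neither was thus lower in 19C than in 15C.

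The clusters inside the class differed in share between the tumours. A cluster led by Pf4, Apoe, Mrc1, Folr2 and Stab1 held 42.7%, 7.35%, 55.8% and 30.4% of the class in the controls and 2.26%, 2.71% and 15.1% in the KO tumours. A cluster led by Chil3, Plac8 and Ly6c2 held 24.6%, 51.9%, 10.5% and 22.3% against 46.9%, 48.2% and 43.8%. Tumour 15B was thus nearer to the KO tumours than to the other controls in both. The shares rest on clusters that use these genes and are given as a description. Matrix genes Ogn, Col3a1 and Col5a2 and the hypoxia gene Car9 also rose in this class, by log2 changes of 4.23, 1.87, 1.71 and 1.88, where the differences in the mixed libraries were 0.84, 0.45, 0.13 and 0.18. These calls were lost without 19B and, for Col3a1, Col5a2 and Car9, without 19A. Those of Ogn, Col3a1 and Col5a2 were also lost without 15A and that of Col3a1 without 18A or 24A. In the KO tumours Ogn stood there at 48.9% of its level outside the gate.

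The KO difference at day 6 was then set beside those at day 0 and day 10 in the single-line libraries, which share the lines and libraries. Day 0 had 5769 cells and day 10 had 21233, and the labels do not say what the day 0 cells were. Outside the gate the KO difference changed between day 0 and day 6 in 1715 of 12983 genes (13.2%). It was higher at day 6 in 1055 (8.13%) and lower in 660 (5.08%). The count was 1029 without 19A, 983 without 19B, 483 without line 15, 813 without line 18 and 667 without line 19. Of 19 cell cycle genes 16 passed, all higher at day 6, with a median log2 KO difference of -1.99 at day 0 and -0.32 at day 6.

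Rrm2, the ribonucleotide reductase subunit made for DNA synthesis, was 130, 113 and 161 CPM in the day 0 controls and 19.7, 27.9, 15.7 and 17.1 CPM in the day 0 KO samples. At day 6 it was 59.2, 80.6, 57.3 and 93.5 CPM in the controls against 104, 108 and 39.9 CPM in 19A, 19B and 24A. The KO difference rose by 2.96 on the log2 scale (edgeR adjusted p 0.000623). The replication helicase subunit Mcm5 changed alike, by 2.79 (adjusted p 2.26e-05), and the proliferation marker Mki67 by 1.82 (edgeR adjusted p 0.00101). At day 0 the control and KO samples were far apart for these genes, and at day 6 they were close together or overlapped.

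The interferon and MHC class I differences did not change between day 0 and day 6 by this test, apart from Psmb10, whose call was lost without line 18 or line 19. The interferon median was 1.38 at day 0 and 1.29 at day 6, and that of MHC class I 0.93 and 1.08. The levels did differ: Gbp2 was 3.67, 5.66 and 5.13 CPM in the day 0 controls and 7.67, 12.2, 19.5 and 19.6 CPM in the day 0 KO samples, below every day 6 KO tumour. S100a16 was already apart at day 0, at 4.05, 4.24 and 3.99 CPM against 49.3, 43.6, 81.8 and 78.3 CPM. Median log2 KO differences at day 0 were also above 0 for lists that hold genes of immune cells. They were 3.07 for MHC class II, 2.94 for cytotoxicity, 2.45 for alternative activation and 1.61 for inflammatory genes. In that order 6 of 6, 4 of 6, 3 of 4 and 10 of 12 genes were higher in KO. The part of host cells or shared RNA from tumours of the same libraries was not tested.

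Between day 6 and day 10, 0 of 13381 genes (0%) changed their KO difference outside the gate in edgeR, with 358 at an unadjusted p under 0.05 and 3 past the threshold in DESeq2. In immune-gated cells 0 of 11505 (0%) did, with 515 at an unadjusted p under 0.05 and 0 in DESeq2. The interferon median was 1.27 at day 6 and -0.04 at day 10, and that of MHC class I 1.06 and 0.36, in the scaling of that fit. Gbp2 at day 10 was 46.9, 47.9, 289 and 54.8 CPM in the controls and 23.2, 29.4, 103 and 116 CPM in the KO tumours, so the groups overlapped. Mif stayed low, with log2 differences of -4.56 at day 0 and -3.09 at day 10.

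**Figure D5:**
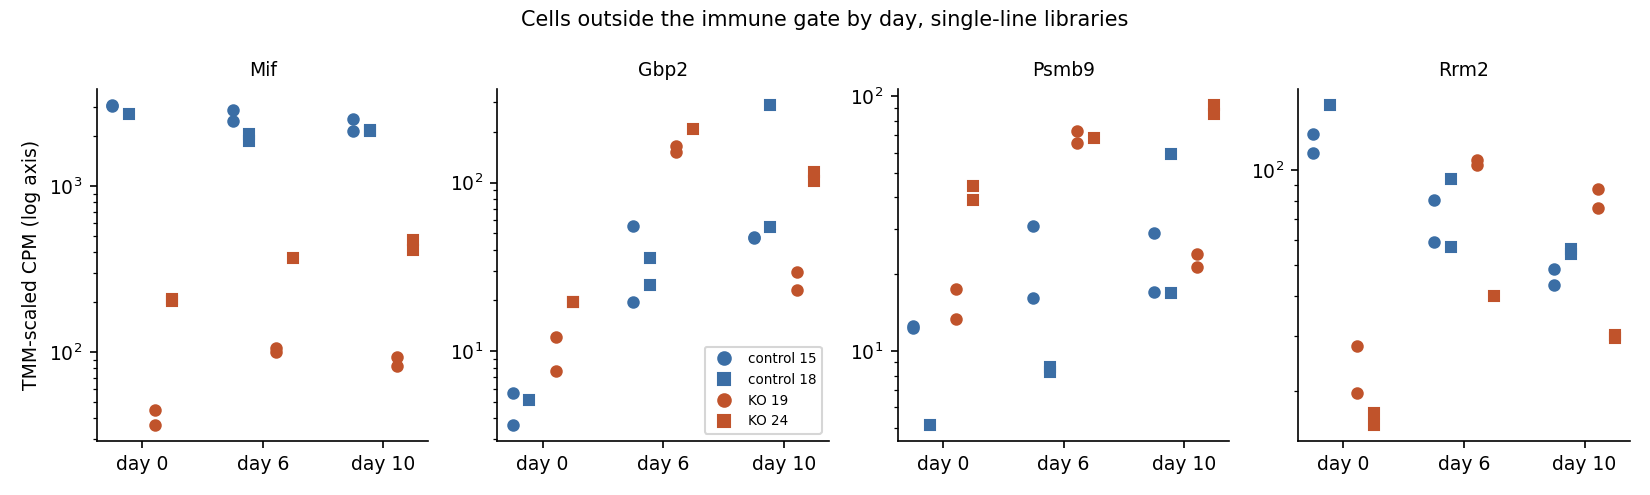
CPM (log axis) of Mif, Gbp2, Psmb9 and Rrm2 in cells outside the immune gate at days 0, 6 and 10 for each sample of the single-line libraries; circles are lines 15 and 19, squares lines 18 and 24. Mif is low in KO at each day, Gbp2 separates the groups at days 0 and 6 and overlaps at day 10, and Rrm2 separates them at day 0 and overlaps at day 6.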

How the data were processed

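Live cells sorted from hashed tumours were profiled with the 10x Genomics 5′ v2 kit, as the labels' protocols state. Unnormalised UMI counts for 32285 genes and 10 hashtags in each barcode were deposited by the authors. The submitters' processing notes name Cell Ranger 6.0.0 and mm10. All values are whole numbers.

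Cells and tumours were taken by the rules in the report, and a deposited sheet gave each hashtag's line, day and letter. The hashtag ratio is meant to remove doublets between tumours, while doublets within a tumour remain. How many doublets it removed was not tested. Counts were summed per tumour and compartment for tumours with at least 20 cells. They were fitted with edgeR 4.0.16 (filterByExpr, TMM scaling, quasi-likelihood test, Benjamini-Hochberg adjustment over all genes tested, threshold 0.05) in R 4.3.3. Each SE of a log2 change was derived as the absolute log2 change divided by the square root of the F statistic of that test. CPM values are TMM-scaled within a fit, except in marker sums and in percentages of the level outside the gate. Day differences are interaction terms, and the mixed-library fits carry a library term and 1 residual degree of freedom. Immune-gated and other cells were clustered in scanpy 1.11.5 (2000 variable genes, 30 components, 15 neighbours, Leiden resolution 1.0). Clusters were named from at least 3 markers at a fold of at least 2 in at least 10% of cells. Class shares were tested by exact two-sided permutation. The T-like class was not fitted, because among the controls only 15B, and among the KO tumours not 24A, reached 20 such cells. Intervals and limits from a count of 0 cover counting error only, and the fits were tested on simulated data.

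The named genes are Mif, the 10 largest changes each way (5 in macrophage-like cells and between days) among genes past the threshold with an average log2 CPM of at least 4 and, within day 6, no overlap of the groups, and up to 4 members of each list by p, with any others needed to describe it. Members, lists and markers were chosen with earlier results of these data known. Same-line tumours differed by more than counting noise, at 13.3, 13.5 and 2.61 chi-square per degree of freedom for lines 15, 18 and 19. The results were recomputed in DESeq2 1.42.0, with RLE scaling, without the filter on low counts, with other cell and hashtag filters, with other gates, with sums per line or line as a term, in the mixed libraries, and after leaving out each tumour or line. The values of 1 interferon response gene are not reported here; it remains in the list counts and medians.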

Additional observations from a re-analysis of the deposited data

Results flagged for a closer look

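In 9 of 109 control groups of 4 tumours examined, 1 tumour lay far from the other 3, where chance alone gives about 1 in 20. Outside the immune gate these were Ogn at 43.8 CPM in 18A (the others 5.98 to 12.0), Tgfb3 at 5.37 CPM in 18A (3.45 to 3.54) and Plk1 at 40.6 CPM in 18A (48.5 to 49.1). They also were Cck at 96.5 CPM in 15A (31.6 to 35.1) and Cd274 at 13.2 CPM in 15B (4.93 to 5.86). In immune-gated cells Gzmb was 145 CPM in 15B (0.671 to 22.1). In macrophage-like cells 15B stood apart for Ccl24 at 16.9 CPM (3.78 to 5.35), Prss23 at 9.09 CPM (5.04 to 5.35) and Abca1 at 52.0 CPM (104 to 112).

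The KO difference outside the gate changed between day 0 and day 6 in 1715 genes by the interaction test. The largest rises on the log2 scale were 2.96 for Rrm2, 2.83 for Ccnb1ip1, 2.79 for Mcm5, 2.74 for the histone gene Hist1h2ae and 2.69 for the replication checkpoint gene Clspn. The largest falls were -4.17 for the complement protease C1s1, -3.62 for the lipocalin Apod, -2.75 for the growth factor binding protein Igfbp4, -2.54 for the transcription factor Maf and -2.37 for the smooth muscle actin Acta2.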

How the results depend on the processing

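Each group has only 2 lines, and the counts moved with the tumours, lines and settings used. The count outside the gate was 1452 genes with DESeq2 (767 of them shared), 1 with 1 sum per line, 3099 with line as a term, 0 in the mixed libraries (317 at an unadjusted p under 0.05 in edgeR), and 21 to 1618 when a tumour or line was left out. In immune-gated cells it was 280 with DESeq2, 272 with no filter on low counts, 156 with a gate of 1 UMI, 19 with that gate in cells thinned to 1000 UMIs, 65 without the 5% of cells with most UMIs, 5 without clusters that carry no immune class, 0 with 1 sum per line (658 at an unadjusted p under 0.05 in edgeR), 1389 with line as a term, 227 with the mixed libraries added, and 0 to 1367 when a tumour or line was left out. In macrophage-like cells it was 241 with no filter, 5 with 1 sum per line, 145 with line as a term, 415 in the mixed libraries, 316 with them added, and 0 to 383 when a tumour or line was left out. The count for day 6 against day 0 ranged from 483 to 2515 when a tumour or line was left out. For day 10, DESeq2 gave 3 genes outside the gate, and leaving out line 18 gave 41 in immune-gated cells (range 0 to 41).

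Of the named genes' values outside the gate, 921 kept direction and side of the threshold, 272 dropped below it, 30 passed it and 1 turned: Ddt, at a log2 change of 0.071 without line 15 (range -0.49 to 0.071 over the tumours and lines left out). In immune-gated cells these counts were 456, 196, 12 and 6, and in macrophage-like cells 360, 98, 23 and 1. The turned values, all in the mixed libraries, were -0.12 for Acot2, 0.51 for Akr1c18, 0.54 for Thbs2, 0.95 for Tnn, 0.11 for Hspa1b and 0.028 for Qdpr among immune-gated cells, and 0.057 for Mif among macrophage-like cells. The day 6 minus day 10 value of Mif was 0.18 without line 24 (range -1.41 to 0.18). The immune share, 0.703 percentage points lower in KO, turned to 1.46 points with the gate of 1 UMI and 1.59 with it in thinned cells, was -6.15 points with the stricter hashtag rule and -3.92 with the mixed libraries added, and ranged from -7.65 to 6.24 when a tumour or line was left out. With the mixed libraries 4 classes passed an adjusted exact permutation p of 0.05 (NK-like, T-like, migratory dendritic-like and neutrophil-like), and the fibroblast-like difference turned to 0.119 points. That permutation took no account of line or library. The macrophage-like share turned to 3.42 points without 15A, 2.78 without 15B, 0.883 without 24A and 13.7 without line 15 (range -18.1 to 13.7), and the dendritic-like share to -0.65 without 24A (range -0.65 to 4.47). The cause was not tested for any of these. Leaving out clusters of the other compartment, and other denominators for class shares, were chosen after seeing the data. The T-like fits were not run. No paired analysis was possible because each single-line library belongs to 1 group and the letters only name tumours; the mixed libraries, which each hold a control and a KO tumour, were fitted with library as a term.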
